A study of Sus scrofa with 32 samples.

Results

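Ion channel, ion pump and excitation-contraction coupling genes were followed in 2 muscles of 2 Polish pig breeds. The genes were chosen by symbol from the 25322 pig Ensembl gene IDs of the expression table, of which 11804 could be given a symbol. A gene was a member when its symbol began with CACN, KCN, SCN and a digit, CLCN, ATP1A, ATP1B, ATP2A, ATP2B, CHRN, JPH or CAMK2, or was TRDN, STAC3, CASQ2 or RYR3, while ATP2A1 was left out. This gave 132 genes in 13 classes. The choice used names only and no expression value. Of the 3 last symbols of the rule, STAC3, CASQ2 and RYR3, none was paired with an ID, and the same held for CLCN1, KCNJ2, KCNJ11, ATP2A2, CHRNB1, CHRND, CHRNG, JPH2 and CAMK2B, which are not analysed here.

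A skeletal muscle fibre is excited when acetylcholine opens nicotinic receptors at the neuromuscular junction and voltage-gated sodium channels carry the action potential over the surface membrane and into the transverse tubules. There the voltage-gated calcium channel senses the change and opens the calcium release channel of the sarcoplasmic reticulum, a contact that junctophilins and triadin hold together in the triad. Calcium pumps then clear the cytosol, while chloride channels, potassium channels and the sodium-potassium pump return the membrane to rest.

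RNA was sequenced from the longissimus dorsi (LD, the loin muscle) and the semimembranosus (S, a ham muscle) of gilts, 8 of the Pulawska breed (PUL) and 8 of the Polish Landrace (PL). The labels give an age of 180 days for every pig. The paper fed pigs to a set body weight and treated age at slaughter as a varying trait. Ages may therefore have differed between pigs and between breeds. Both muscles of every pig were sequenced, so that the 4 groups PUL LD, PL LD, PUL S and PL S held 8 libraries each. PUL is an indigenous breed outside intensive selection, PL a white maternal breed of high meat content; all pigs were unrelated, came from different farms, were reared at 1 test station on the same feed, fasted before slaughter and received no treatment. Total RNA of whole muscle was freed of ribosomal RNA and read without strand or cell sorting, so fewer cells of a type and less RNA per cell cannot be told apart. The assignment of libraries to sequencing lanes is not given in the sources used here.

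Summed counts per library ranged from 8821273 to 24761853. Values are given in CPM, counts in a library brought to a common library size after TMM scaling. Muscle markers were abundant throughout, the 6 fast fibre genes with an ID summing to between 40714 and 188730 CPM per library. Some libraries stood apart. Liver-type transcripts, such as those of apolipoproteins and fibrinogen, summed to 30.7 to 814 CPM for PUL pigs 1 to 5 (10 libraries), to 25.1 to 76.8 CPM in the other 6 PUL libraries and to 18.1 to 67.9 CPM in the 16 PL libraries. The LD library of PL pig 12 and the S library of PL pig 14 correlated least with the rest. Values without these libraries are given beside the results they move.

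Reads of the members were unevenly spread. CACNA1S, JPH1, CACNG1, CACNB1 and ATP1B1 were the 5 members with the most reads, 63 of the 132 members averaged under 0.1 CPM, and KCNA10 and KCNK15 had no count in any library, which allows up to 0.00579 CPM over all libraries (3 counts, counting error only). After edgeR's filter on low counts, 45 members were tested between breeds in LD, 46 between breeds in S and 53 between muscles, 45 of them in all 3 fits, and 79 members were too low for any test. Transcript lengths were not used here, so no level is compared between genes.

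The voltage sensor of the triad was read deeply in all 4 groups. CACNA1S (ENSSSCG00000024784), the pore and voltage sensor of the muscle L-type calcium channel, averaged 386 ± 162 CPM in PUL LD, 384 ± 195 in PL LD, 403 ± 193 in PUL S and 351 ± 145 in PL S (SD, n = 8 in every group here and below). Its means differed by less than any of the 4 SDs. CACNB1, the β subunit needed for its delivery to the membrane, averaged 184 ± 65.4, 220.2 ± 87.5, 217 ± 76.8 and 191 ± 47.7 CPM in the same order of groups. CACNG1, the muscle γ subunit, averaged 255 ± 149, 248 ± 76.3, 267 ± 114 and 243 ± 66.6 CPM. The extremes fell on the same libraries for the first pair: the LD library of PUL pig 2 was the lowest of all 32 for CACNA1S (132 CPM) and CACNB1 (65.2 CPM), and the LD library of PL pig 7 was the highest for both (775 and 397 CPM).

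CACNA2D1, the α2δ subunit, behaved otherwise. It averaged 14.6 ± 9.56 CPM in PUL LD, 20.6 ± 25.2 in PL LD, 9.08 ± 6.29 in PUL S and 13.5 ± 4.47 in PL S, and the spread in PL LD came from 1 library, that of pig 12 at 79.7 CPM, against 5.88 to 28.5 CPM in the other 7. Of 18 calcium channel subunit genes 6 were tested between muscles, CACNB2 and CACNG6 being the others, and the remaining 12 were too low.

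The genes of the triad proteins differed little in their group means. JPH1, the junctophilin that spans the gap between transverse tubule and sarcoplasmic reticulum, averaged 373 ± 147 CPM in PUL LD, 309.6 ± 119 in PL LD, 302 ± 70.1 in PUL S and 272 ± 77.8 in PL S. TRDN (triadin), which anchors calsequestrin to the release channel, averaged 91.7 ± 59.3, 97.4 ± 38.2, 104 ± 61.8 and 93.7 ± 32.8 CPM. The order of the JPH1 means was PUL LD, PL LD, PUL S, PL S, and no neighbours in that order differed by more than the smaller of their SDs.

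Among the calcium pumps, ATP2A3, a sarcoplasmic reticulum type pump best known from non-muscle cells, averaged between 4.38 ± 2.27 CPM (PL LD) and 5.61 ± 2.36 CPM (PUL S). ATP2B1, a plasma membrane calcium pump, had medians of 6.73, 2.67, 3.75 and 3.46 CPM in PUL LD, PL LD, PUL S and PL S, with single PL libraries at 28.1 CPM (LD, pig 12) and 14.3 CPM (S, pig 14). ATP2B4, of the same family, was close to the lower limit at 0.202 CPM on average and was not tested. The calcium/calmodulin-dependent kinase II genes CAMK2A, CAMK2D and CAMK2G, which respond to repeated calcium release, averaged 10.4 to 14.2, 21.3 to 37.5 and 18.3 to 23.0 CPM over the 4 groups, and CAMK2D and CAMK2G also had their highest value in the LD library of PL pig 12 (88.5 and 57.4 CPM).

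SCN4A, the sodium channel pore of adult skeletal muscle, ranged widely between pigs of a group, from 3.22 to 52.97 CPM in PUL LD (median 20.2), 3.24 to 36.0 in PL LD (median 12.7), 6.94 to 26.5 in PUL S (median 17.6) and 5.77 to 39.3 in PL S (median 11.7). The groups overlapped over nearly their whole ranges. Of 12 sodium channel genes 3 were tested between muscles, SCN2B, a β subunit, among them.

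For the sodium-potassium pump, ATP1B1 encodes a β subunit, while ATP1B4 is a muscle-expressed relative of the β subunits. ATP1B1 averaged 134 ± 25.6 CPM in PUL LD, 141 ± 47.1 in PL LD, 153 ± 67.2 in PUL S and 171 ± 63.9 in PL S. In the same order of groups ATP1B4 averaged 139 ± 95.1, 114 ± 48.3, 143 ± 136 and 137 ± 53.7 CPM, and the S library of PUL pig 5 was the highest of all for both β genes, at 312 CPM for ATP1B1 and 458 CPM for ATP1B4.

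**Figure D1:**
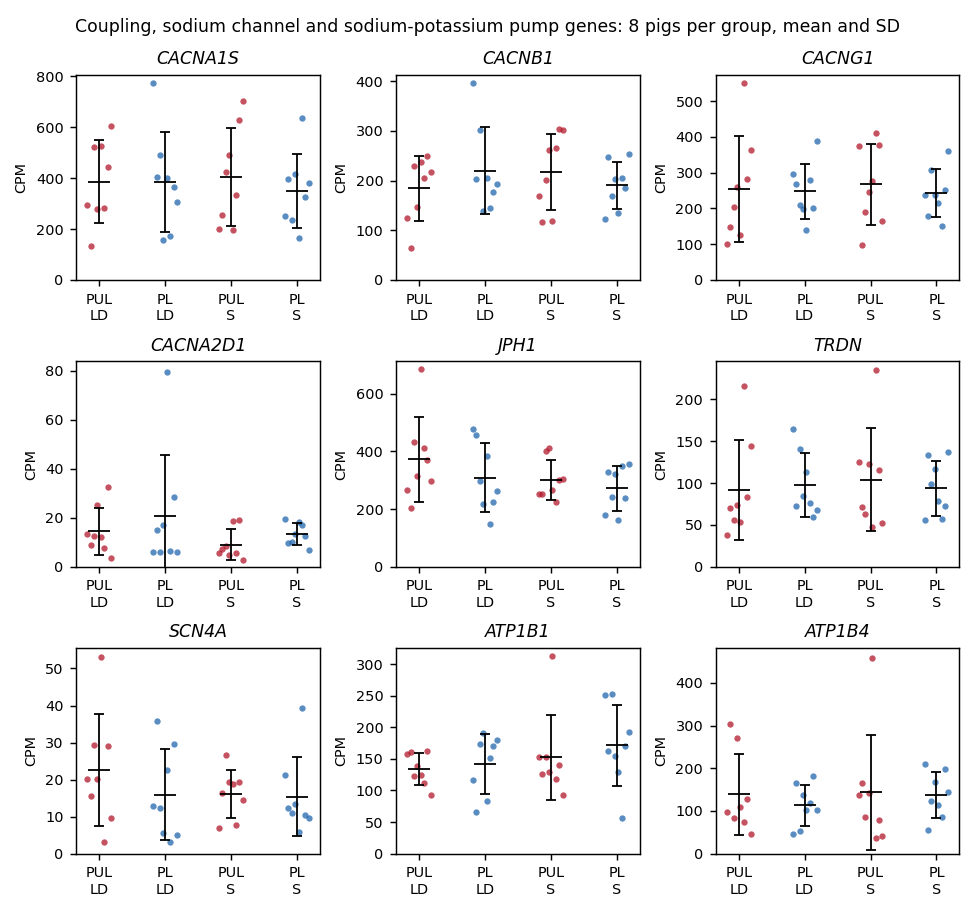
Normalised read count (CPM, y axis from 0, scaled per panel) of 9 calcium channel, triad, sodium channel and pump genes in the 4 groups of 8 pigs; each point is 1 library, the bar the mean and the whiskers 1 SD, cut at 0 where the SD exceeds the mean. The groups overlap in every panel, and single libraries such as PL LD pig 12 for CACNA2D1 (79.7 CPM) and PUL S pig 5 for ATP1B4 (458 CPM) stand far above their group.

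The nicotinic receptor genes were read unequally. CHRNA1, the α subunit of the muscle receptor, had 96 counts in all and none in 22 of the 32 libraries, whereas CHRNE, the ε subunit that marks the adult receptor, was found in every group at means of 2.09 ± 1.32 CPM in PUL LD, 2.03 ± 0.693 in PL LD, 5.39 ± 2.93 in PUL S and 4.10 ± 4.09 in PL S. CHRNA10, a subunit best known from the inner ear, was as readily counted, at 4.54 ± 2.45, 3.15 ± 1.299, 7.74 ± 4.83 and 3.10 ± 1.52 CPM. Reads that could come from several genes were divided among them by the authors' counting, and the sums of related subunits were not separated further.

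Potassium channel genes made up 68 of the 132 members, and 20 of them were tested between muscles. KCNN1, KCNN2 and KCNN3 encode small-conductance channels opened by calcium, which in muscle are best known from immature and denervated fibres. KCNN3 averaged 1.33 ± 0.618, 1.23 ± 0.451, 2.13 ± 0.709 and 1.35 ± 0.367 CPM in PUL LD, PL LD, PUL S and PL S. KCNMA1, the large-conductance calcium-activated channel, averaged 0.423 to 0.756 CPM. The inward rectifiers KCNJ4, KCNJ8, KCNJ9 and KCNJ14 were tested out of 9, and KCNK1 and KCNK13 out of 10 two-pore channels. Among the 29 pores of the voltage-gated class 5 were tested, KCNA7, KCNC4, KCNH2 and KCNQ5 among them, and the 5 chloride genes tested were CLCN2, a plasma membrane channel, with CLCN3, CLCN4, CLCN6 and CLCN7, exchangers of endosomes and lysosomes.

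In LD no member was called between the breeds, a call being an adjusted p at or under 0.05 with a change of at least 1.3-fold. By edgeR's quasi-likelihood test with Benjamini-Hochberg adjustment, 0 of 45 members were called, as were 0 of all 10792 genes (0%). At an unadjusted p under 0.05 there were 2 of 45 members (4.44%), both lower in PL, against 7.15% of all genes. DESeq2 called 0 members and 19 genes (0.176%). The paper, which required significance by at least 2 of edgeR, baySeq and DESeq2, reported genes differing between breeds in both muscles. The median log2 fold change (PL over PUL) was −0.05 over the members and 0.01 over all genes, and the median of its size was 0.26 and 0.18. All 5 chloride genes had fitted values below 0 (median −0.25), none of them called, and without PUL pigs 1 to 5 CLCN3 was at 0.49.

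CLCN7 (ENSSSCG00000008024), the chloride-proton exchanger of lysosomes, had the smallest p in LD. It lay between 12.7 and 20.6 CPM in PUL (median 15.5) and between 6.66 and 18.2 in PL (median 9.50). Of the PL libraries 5 lay below every PUL library, and 1 PUL library lay above every PL library. The log2 fold change was −0.49 ± 0.21 (SE, adjusted p = 0.658), −0.40 without PL pig 12, which had the lowest value, and −0.59 without PUL pigs 1 to 5. KCNJ14, an inward rectifier that sets the resting potential, lay between 1.83 and 6.29 CPM in PUL (median 2.65) and between 0.932 and 3.94 in PL (median 1.51), a log2 fold change of −0.73 ± 0.33 (adjusted p = 0.684); with the level of liver-type transcripts as a covariate it was −0.46. KCNIP2, a calcium-binding partner of voltage-gated potassium channels, lay between 0.215 and 8.34 CPM in PUL (median 1.21) and between 2.24 and 15.1 in PL (median 4.03). Its log2 fold change was 1.06 ± 0.61 (adjusted p = 0.752) and 0.56 without PUL pigs 1 to 5, 5 PUL libraries lying below every PL library.

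In S, too, no member was called. EdgeR called 0 of 46 members and 0 of 10687 genes (0%), and DESeq2 called 0 members and 103 genes (0.964%). At an unadjusted p under 0.05 there were 7 of 46 members (15.2%), 3 of them higher in PL, against 11.7% of all genes. They included CHRNA10, KCNN3 and CLCN7, with lower values in PL, and SCN2B, CAMK2D and KCNJ9, with higher values in PL. The median log2 fold change was −0.04 over the members and 0.02 over all genes, and its median size 0.25 and 0.22. All 3 nicotinic subunits tested (median −0.62) and all 3 calcium- or sodium-activated potassium channels tested (median −0.43) had values below 0, with none called. Those directions rested in part on PUL pigs 1 to 5, without which CHRNA9 was at 1.38, CHRNE at 0.45 and KCNN1 at 0.53.

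CHRNA10 (ENSSSCG00000014796) came closest. In S it lay between 2.66 and 15.3 CPM in PUL (median 6.93) and between 1.23 and 5.76 in PL (median 2.63), with 4 PUL libraries, of pigs 2, 3, 4 and 17, above every PL library and 4 PL libraries below every PUL library. The log2 fold change was −1.31 ± 0.38 (edgeR, adjusted p = 0.219); over the alternatives tried the adjusted p ran from 0.0561 (DESeq2) to 0.413, and without PUL pigs 1 to 5 the value was −0.91. In LD the same gene had a log2 fold change of −0.53 ± 0.32 (adjusted p = 0.771).

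SCN2B (ENSSSCG00000021651) lay in S between 0.313 and 1.503 CPM in PUL (median 0.722) and between 1.18 and 1.98 in PL (median 1.49), with 4 PL libraries above every PUL library, a log2 fold change of 0.90 ± 0.33 (adjusted p = 0.324) that was 0.71 without PUL pigs 1 to 5.

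Of the members that follow, KCNN3 and CAMK2D were named for their role and CLCN7 for its p in LD. KCNJ9 was picked after its values were seen. KCNN3 had 5 PUL libraries above every PL library (log2 fold change −0.63 ± 0.24, adjusted p = 0.343), and CLCN7 had 6 PL libraries below every PUL library (−0.29 ± 0.13, adjusted p = 0.406, and −0.45 without PUL pigs 1 to 5), the same direction as in LD. CAMK2D, the δ isoform of the kinase, ranged from 12.6 to 35.4 CPM in PUL and from 21.0 to 48.1 in PL (0.59 ± 0.22, adjusted p = 0.325, and 0.90 without PUL pigs 1 to 5). KCNJ9, an inward rectifier opened by G proteins, had a value of 1.25 ± 0.59 (adjusted p = 0.425) with PL pig 8 at 36.9 CPM, its medians being 2.69 CPM in PUL and 2.86 in PL.

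KCNK1, a two-pore channel that passes a background potassium current, was too low for the breed fits and is described because breed took the largest share of its variation (30.7%) among the 53 members. It ranged from 0.0702 to 0.596 CPM in PUL LD (median 0.295), 0.213 to 3.17 in PL LD (median 1.003), 0.208 to 0.752 in PUL S (median 0.334) and 0 to 1.49 in PL S (median 0.982). In LD 5 PL libraries lay above every PUL library, and in S 6 did, while 1 PL library in S had no count. These are counts of at most 49 per library in LD and 29 in S. In edgeR fits without the filter the log2 fold change was 1.87 ± 0.53 in LD (adjusted p = 0.236) and 1.14 ± 0.50 in S (adjusted p = 0.398), and without PUL pigs 1 to 5 the values were 1.54 and 0.96.

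Some genes of other cell types moved with breed beside these values. All 7 tested fibroblast and matrix genes had values above 0 in PL over PUL, with medians of 1.41 for LD and 1.11 for S on the log2 scale, and their summed level ranged from 114 to 2369 CPM in PUL and from 544 to 5528 CPM in PL; 5 in LD and 4 in S had an unadjusted p under 0.05, 0 were called by edgeR and 0 by DESeq2. Liver-type transcripts lay mostly on the other side. The 5 tested had a median of −0.77 in LD, with APOA1 above 0 (0.09), and of −1.30 in S, with ITIH4 at −0.02. In S DESeq2 called 2 of them, RBP4 and ITIH3, and edgeR 0. DESeq2 also called 1 of the 5 smooth muscle genes tested in LD, CNN1 (edgeR log2 fold change 1.38). The list's median there was 0.07, and 3 of the 5 lay above 0. In S it called 1 of the 3 adipocyte genes tested, LIPE (−1.34), where the median was −0.58 and 1 lay above 0. The 7 endothelial genes tested had medians of −0.03 in LD and 0.19 in S, with 0 called by DESeq2. The part of these lists in the values of the channel genes was not tested, beyond the values without PUL pigs 1 to 5 given above.

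**Figure D2:**
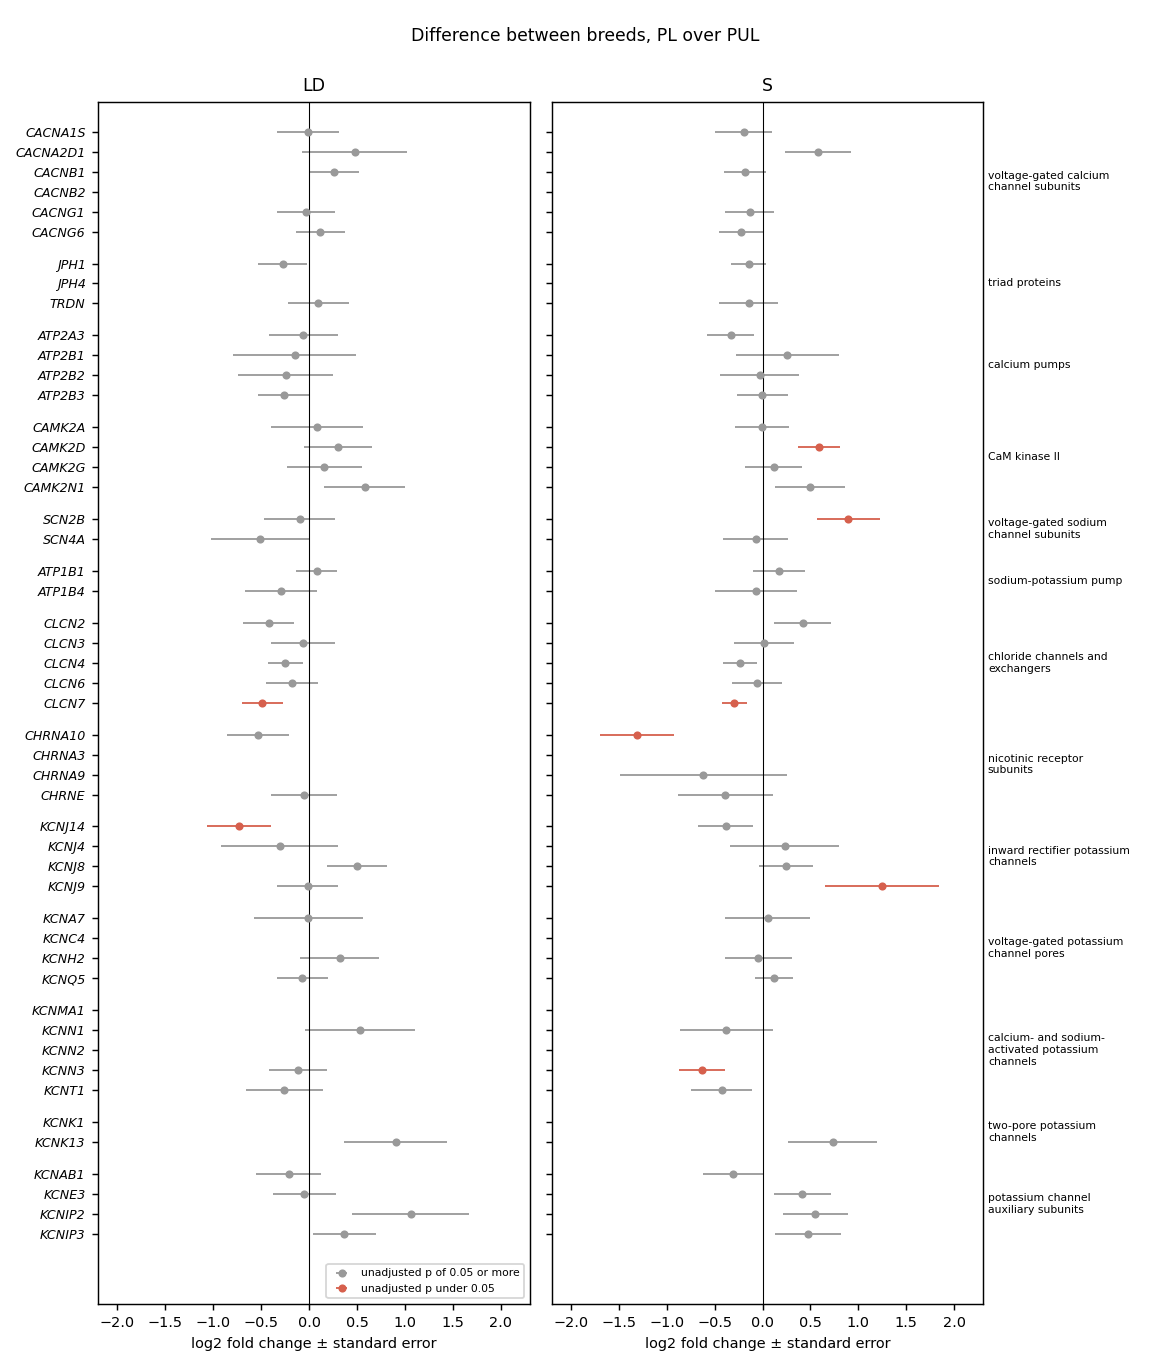
Log2 fold change between breeds (PL over PUL, x axis) with its standard error for tested members, in LD (left, 41 genes) and S (right, 42 genes), by class; red marks an unadjusted p under 0.05 by edgeR. The values lie on both sides of 0 in several classes, 2 of these genes are red in LD and 6 in S, and none passed adjustment.

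Between the muscles the calcium-activated potassium channels and the nicotinic receptor subunits had the members of smallest p, but again none was called by edgeR. Over both breeds, with the pig as a block, 0 of 53 members and 11 of 11563 genes (0.0951%) were called; the 11 included the body position genes HOXA10, HOXA11, HOXC6, ZIC1 and ZIC4. DESeq2 called 2 members, KCNN1 and CHRNE, both higher in S, among 65 genes (0.562%). At an unadjusted p under 0.05 there were 7 of 53 members (13.2%), 5 of them higher in S, against 5.79% of all genes. The median size of the log2 fold change (S over LD) was 0.19 over the members and 0.11 over all genes, with medians near 0 for both.

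KCNN1 (ENSSSCG00000013892) had the smallest p. It ranged from 0.851 to 10.1 CPM in PUL LD (median 1.20), 2.31 to 21.0 in PUL S (median 5.61), 1.97 to 9.93 in PL LD (median 4.76) and 2.69 to 12.6 in PL S (median 5.03). In LD 6 PUL libraries lay below every PL library and the other 2, of pigs 3 and 17, above every PL library, whereas in S 2 PUL libraries lay above every PL library and 0 PL libraries above every PUL library. S exceeded LD in 7 of 8 PUL pigs and 5 of 8 PL pigs. The log2 fold change was 1.05 ± 0.28 over both breeds (edgeR, adjusted p = 0.254, and 0.0160 by DESeq2), and 0.62 without PUL pigs 1 to 5.

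CHRNE (ENSSSCG00000017909) was next. In PUL it ranged from 0.596 to 5.01 CPM in LD (median 1.84) and from 2.46 to 10.0 in S (median 4.42), higher in S in 8 of 8 pigs. In PL it ranged from 1.04 to 2.98 CPM in LD (median 1.93) and from 0.628 to 12.1 in S (median 2.19), higher in S in 5 of 8 pigs. The log2 fold change over both breeds was 0.97 ± 0.28 (edgeR, adjusted p = 0.398, and 0.0458 by DESeq2), and 0.75 without PUL pigs 1 to 5. All 4 nicotinic subunits tested and all 5 calcium- or sodium-activated potassium channels tested had values above 0, with medians of 0.64 and 0.45. Exceptions were CHRNA3, at −0.07 without PUL pigs 1 to 5, and KCNMA1, at −0.07 without the LD library of PL pig 12 and the S library of PL pig 14.

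KCNQ5, a subunit of the slowly activating M-type current, lay on the other side. It averaged 11.5 ± 3.60 CPM in PUL LD, 7.69 ± 1.04 in PUL S, 10.9 ± 5.27 in PL LD and 8.35 ± 2.75 in PL S, lower in S in 6 of 8 PUL and 7 of 8 PL pigs (log2 fold change −0.43 ± 0.14, adjusted p = 0.551). Other members under 0.05 were KCNJ14 (−0.46 ± 0.17), KCNN3 (0.45 ± 0.19) and KCNN2 (0.69 ± 0.30), with edgeR adjusted p of 0.626, 0.783 and 0.783. KCNN3 was named for its role, and KCNJ14 and KCNN2 for their p in other comparisons. For this comparison they were picked after their values were seen.

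Markers of other cells and of fibre state had differences between muscles as well. Of 12 Schwann cell and nerve genes, 6 had an ID and 2 were tested, EGR2 and NEFL, both higher in S at an unadjusted p under 0.05 (median log2 fold change 1.11) and called by neither edgeR nor DESeq2. The list's summed level was at most 10.0 CPM in any library, with medians of 1.46 CPM in PUL LD, 2.57 in PUL S, 2.25 in PL LD and 4.70 in PL S, NGFR being at 0 in 3 of the 4 groups. Of 5 neonatal and denervation markers tested, 4 had values above 0 in S over LD (median 0.27), while MYH8 lay below 0 (−0.25). MYH3 (1.06, with 1.87 within PUL and 0.26 within PL) and FBXO32 (0.63) had an unadjusted p under 0.05 by edgeR. Of 5 smooth muscle genes, ACTA2 (0.42) and TAGLN (0.47) were higher and CNN1 (−0.26) lower in S at that level. EdgeR and DESeq2 called 0 genes of either list between muscles over both breeds. The part of these markers in the values of KCNN1 and CHRNE was not tested.

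Within PUL, 0 of 53 members and 3 of 11563 genes (0.0259%) were called by edgeR, and KCNN1 and CHRNE again by DESeq2, among 79 genes (0.683%). At an unadjusted p under 0.05 there were 9 of 53 members (17%), 5 of them higher in S, against 6.56% of all genes. KCNN1 had a log2 fold change of 1.64 ± 0.40 (edgeR, adjusted p = 0.248) and CHRNE of 1.37 ± 0.39 (adjusted p = 0.365). CLCN2, lower in S in 8 of 8 PUL pigs, ranged from 1.12 to 2.89 CPM in LD (median 2.06) and from 0.663 to 2.15 in S (median 1.18), a log2 fold change of −0.82 ± 0.26 (adjusted p = 0.453). SCN2B and KCNJ14 were likewise lower in S in 8 of 8 PUL pigs (−0.74 ± 0.27 and −0.72 ± 0.23). Without pigs 1 to 5 only 3 PUL pairs remained, and the values were 0.77 for KCNN1, 0.92 for CHRNE and −0.99 for CLCN2.

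Within PL, 0 members, 0 genes by edgeR (0%) and 4 genes by DESeq2 (0.0346%, 0 members) were called, and 0 of 53 members had an unadjusted p under 0.05 against 2.29% of all genes. KCNQ5 (−0.33 ± 0.20), KCNN2 (0.64 ± 0.41) and CHRNE (0.58 ± 0.41) had the smallest p, each with an adjusted p of 1. Without PL pig 7 the values were −0.18 for KCNQ5, 0.48 for KCNN2 and 0.27 for CHRNE. KCNN2 ranged from 0.213 to 0.800 CPM in PL LD and from 0.531 to 1.28 in PL S, higher in S in 7 of 8 pigs.

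**Figure D3:**
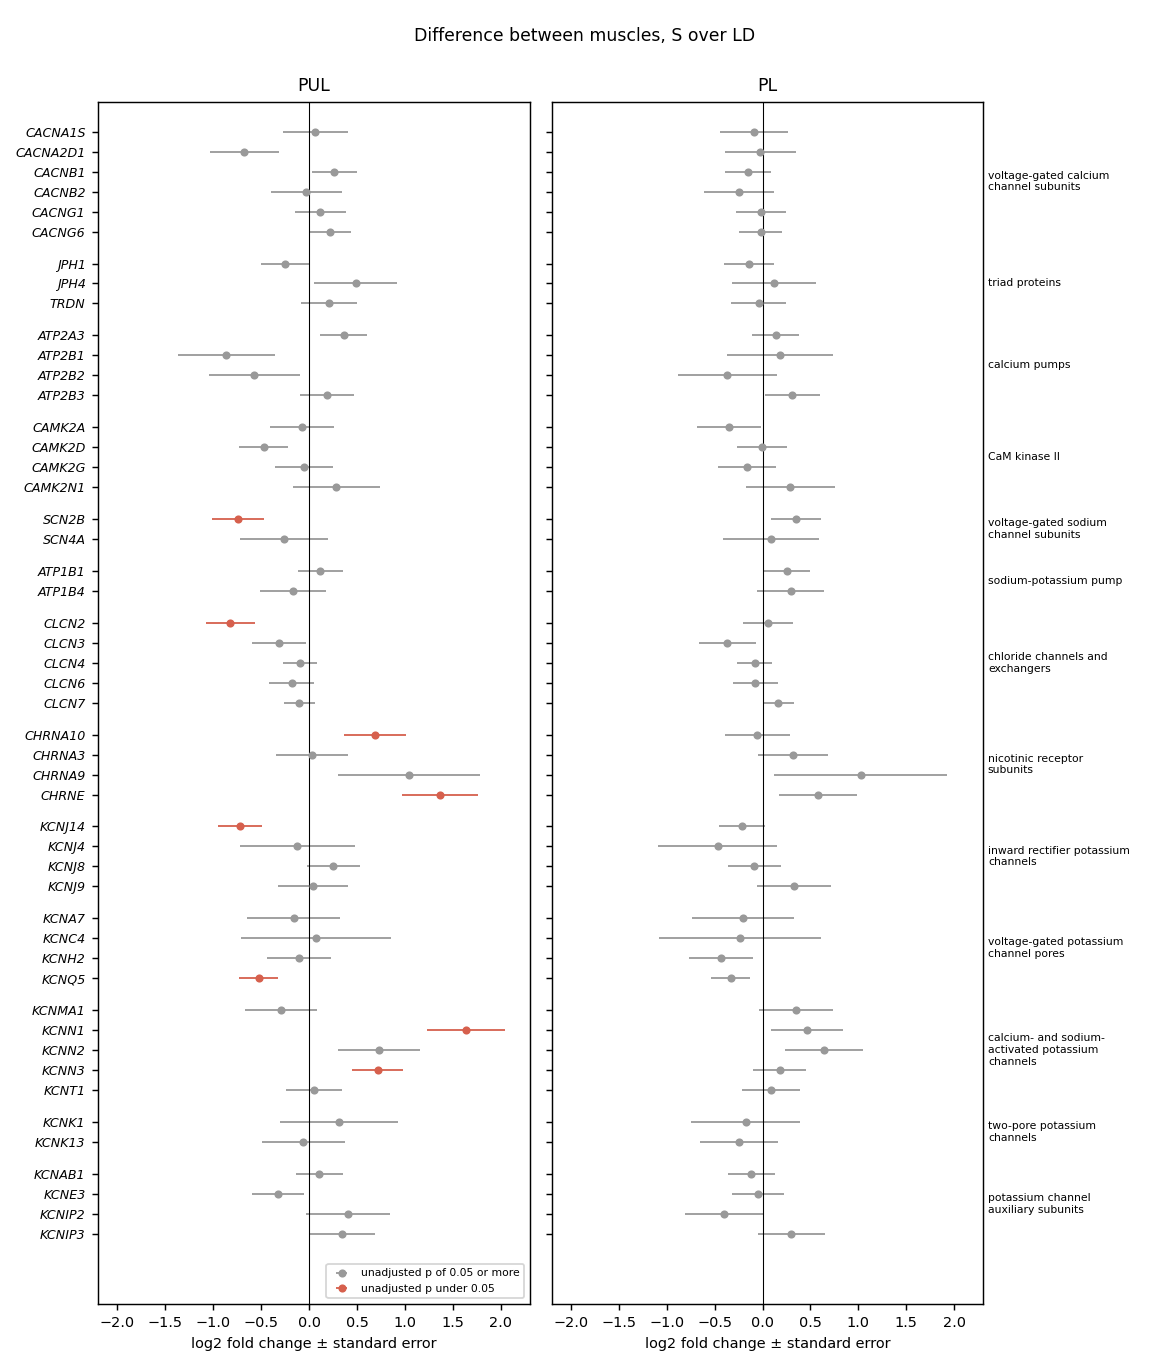
Log2 fold change between muscles (S over LD, x axis) with its standard error for 49 of the members tested, within PUL (left) and within PL (right), by class, from 1 fit over 32 libraries with the pig as a block; red marks an unadjusted p under 0.05 by edgeR. In PUL 8 of these genes are red, among them KCNN1 (1.64) and CHRNE (1.37), and in PL 0; none passed adjustment.

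Whether the muscle difference itself differed between the breeds was tested as an interaction. EdgeR called 0 of 53 members and 0 of 11563 genes (0%), and DESeq2 0 members and 1 gene (0.00865%); 3 of 53 members (5.66%) had an unadjusted p under 0.05, against 2.54% of all genes. SCN2B had a value of 1.09 ± 0.38 (S over LD in PL minus the same in PUL, log2, adjusted p = 0.9996): S was below LD in 8 of 8 PUL pigs and above it in 6 of 8 PL pigs. CLCN2 followed with 0.88 ± 0.37 (adjusted p = 0.9996), S being below LD in 8 of 8 PUL pigs and in 4 of 8 PL pigs. KCNN1 had −1.17 ± 0.55 (adjusted p = 0.9996), and −0.30 without PUL pigs 1 to 5. The 9 members under 0.05 in PUL and 0 in PL are therefore not shown to differ between the breeds.

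**Figure D4:**
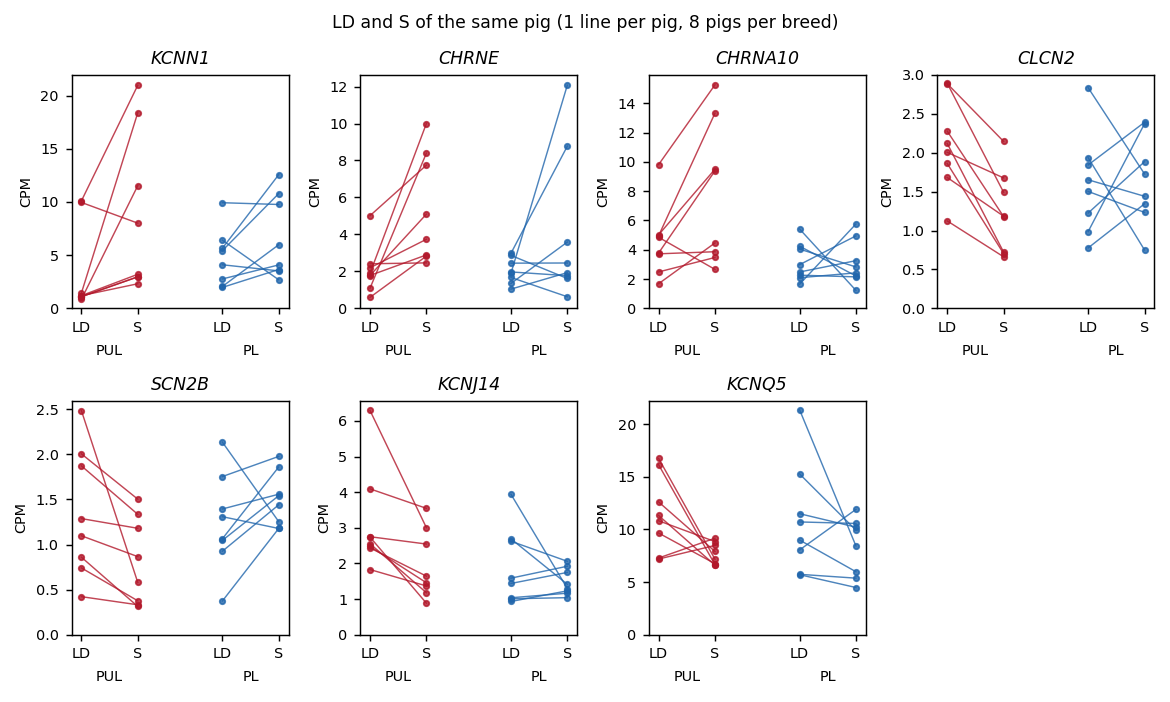
Normalised read count (CPM, y axis from 0) in LD and S of the same pig for 7 members, 1 line per pig, 8 PUL pigs in red and 8 PL pigs in blue. Every PUL line runs upward for CHRNE and downward for CLCN2, SCN2B and KCNJ14, while PL lines run both ways in all 7 panels.

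Most of the variation lay between pigs of a breed and in the residual. Over the 53 members, the median share of the sum of squares of log2(CPM + 0.5) was 53.6% for pigs within breed (52.3% over all 11563 genes), 35.8% for the residual, 2.38% for breed (3.11%), 1.63% for muscle (1.26%) and 0.967% for their interaction, where pigs hold 45.2% of the degrees of freedom and breed 3.23%. The SD over the 32 libraries had a median of 0.59 over the members and 0.45 over all genes. Yet no member was called for a difference among pigs of a breed (edgeR F test added after the data were seen, 0 of 53 members, smallest adjusted p = 0.0767 for KCNN1, against 306 genes or 2.65%). KCNAB1 had the largest share for pig (76.5%), CHRNE for muscle (22.4%) and CLCN2 for the interaction (14.2%).

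A shared axis ran through the libraries. The first principal component of the 11510 other tested genes held 27.5% of their variance and spanned every group. Its 3 highest libraries were PL LD pig 12, PUL LD pig 5 and PL S pig 14. These 3 of 32 held the highest value of 15 of the 53 members (28.3%), among them CACNA2D1, ATP2B1, CAMK2A, CAMK2D, CAMK2G, SCN4A, JPH1 and KCNMA1, against 24.1% of all genes tested. The lowest value of 10 members (18.9%) fell there too, ATP1B1, CLCN7 and KCNQ5 included, against 21.3% of all genes. With the component as a covariate, or without the 2 libraries of lowest correlation, the number of members called was still 0 in all 6 comparisons.

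**Figure D5:**
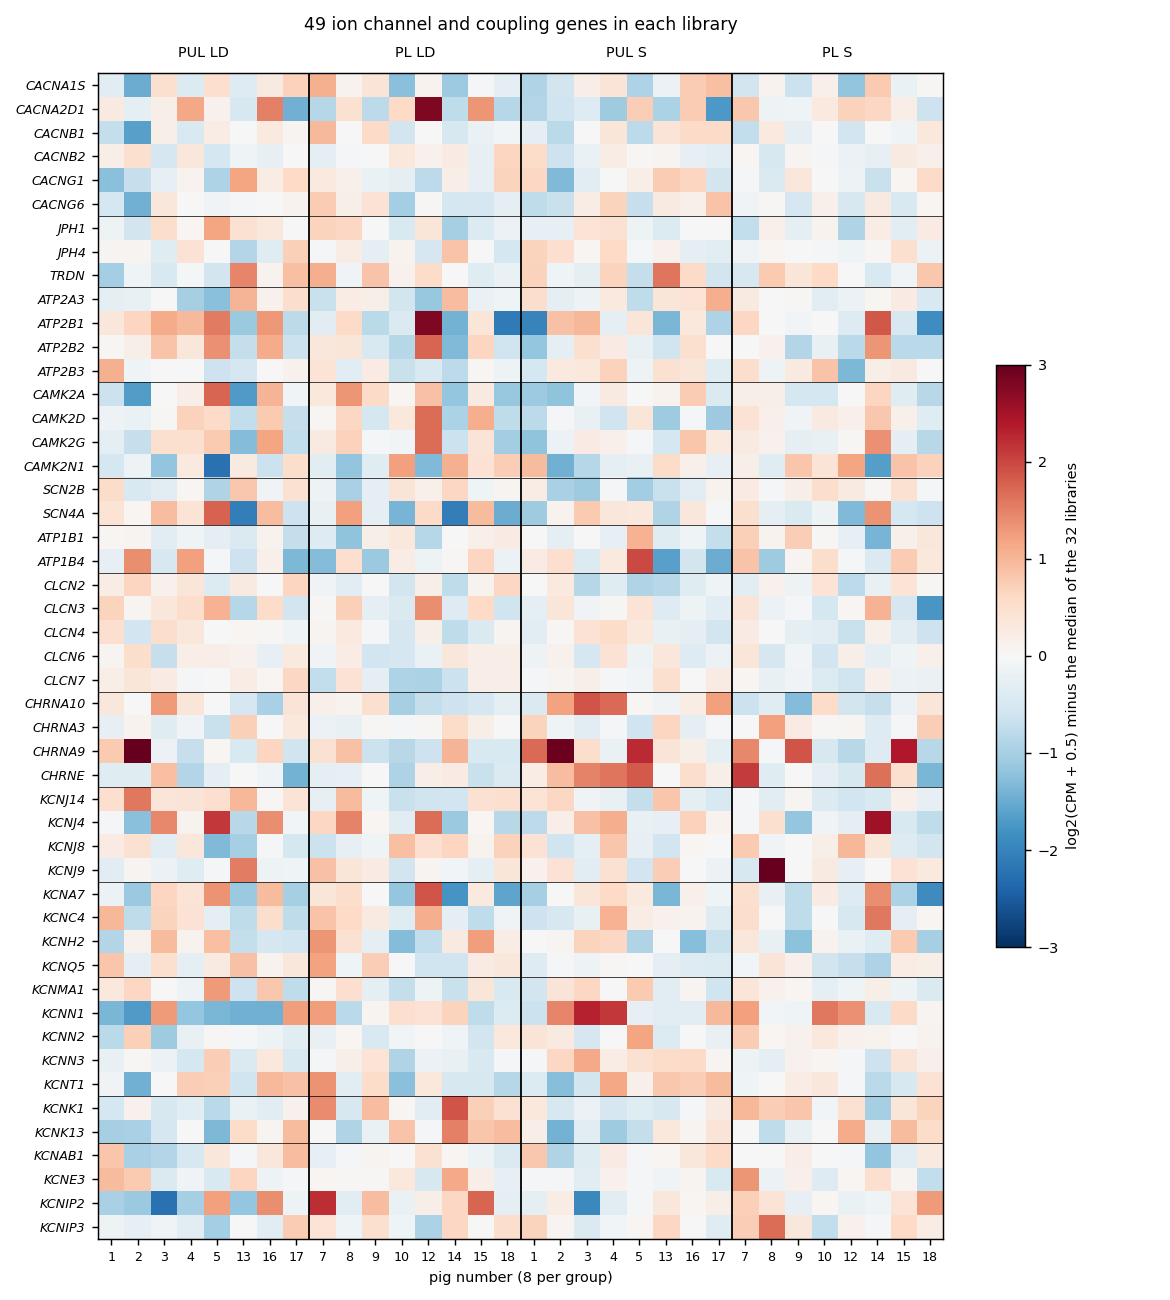
Level of 49 tested members (rows, in the order of their classes, separated by lines) in 32 libraries (columns, by group and pig number), as log2(CPM + 0.5) minus the gene's median over the libraries; red is above and blue below the median, and 2 of 1568 values lie beyond the limit of 3. The columns of PL LD pig 12 and PL S pig 14 are red for ATP2B1, CAMK2G, KCNJ4 and KCNA7, and within most rows red and blue cells occur in all 4 groups.

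Other genes of the coupling pathway gave the same count of 0 calls by edgeR, though not by DESeq2. Of 30 further triad and calcium handling genes 21 had an ID and 20 were tested, and edgeR called 0 in each of the 6 comparisons; RYR1, the release channel itself, had no ID. Unadjusted p under 0.05 were found for PVALB in LD, STIM1 between breeds in S, and S100A1 and PVALB between muscles over both breeds and within PUL. PVALB (parvalbumin, the calcium buffer of fast fibres) averaged 74.4 CPM in PUL LD (SD 63.03) and 314 in PL LD (SD 212) (log2 fold change 2.09 ± 0.55, edgeR adjusted p = 0.481), and DESeq2 called it there, and with S100A1 between muscles over both breeds and within PUL. The paper listed PVALB among the genes higher in PL LD, with qPCR values that correlated with its sequencing values. CASQ1, the calcium buffer of the sarcoplasmic reticulum, ATP2A1, its pump in fast fibres, and SLN (sarcolipin), which inhibits that pump, had adjusted p of at least 0.662 between breeds and between muscles over both breeds. Of 25 further genes of the neuromuscular junction and membrane excitability 18 had an ID and 11 to 13 were tested; edgeR and DESeq2 called 0 in each comparison, TRPM7 (breed, S) and SNTB1 (muscle) having an unadjusted p under 0.05. Slow fibre genes (7 tested) and fast fibre genes (6 tested) were called by neither tool in any comparison.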

How the data were processed

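Gene-level expected counts were deposited by the authors for 32 libraries. Per the labels and the study's methods, ribosomal RNA was removed from total RNA, libraries were prepared with a kit that does not mark strand and sequenced single-end, with base calls from CASAVA 1.8.2. Reads were trimmed with Flexbar and counted with RSEM and Bowtie 2 on Sscrofa10.2, an older pig assembly. RSEM shares reads between similar genes by estimation, so counts of close paralogs are uncertain, and so are those of antisense or overlapping genes. A second table by transcript was not used, since its IDs could not be tied to genes.

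Expected counts were rounded and fitted with edgeR 4.0.16 in R 4.3.3 (TMM factors, filterByExpr, quasi-likelihood test, Benjamini-Hochberg adjustment over all genes tested). A gene was called at an adjusted p at or under 0.05 and a change of at least 1.3-fold. Breeds were compared within each muscle, 8 pigs against 8. Muscles were compared in 1 fit over 32 libraries with the pig as block, since both muscles came from the same animal. After removing group means, the 2 libraries of a pig had a median correlation of 0.196 (−0.517 to 0.686), over 0.1 in 11 of 16 pigs. In 4 of 16 pigs the LD library correlated best with the S library of that pig, among pigs of its breed. Libraries sharing only a replicate number across breeds had a median of 0.137, so the correlations bear out the pairing only weakly. SE is the standard error of the log2 fold change. DESeq2 1.42.0, other scaling, filters, covariates and left-out pigs served as alternatives. The scripts were tested on simulated data: for breeds in LD, true 2-fold differences were recovered in 49% of genes and 4-fold ones in 85%, with 7 false calls among 141 (10792 genes).

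Symbols came from a table of pig gene IDs. Genes named are the 3 of smallest p in each comparison, the 5 with most reads and those of known role in the membrane and triad, and others are said to be picked later. The members and gene lists were chosen with earlier results of these data known. The pigs were unrelated animals; the grouping by breed follows the labels, and the shear force level that the labels attach to each breed was not used, since the labels call PUL the breed of high shear force while the trait measurements of the study point the other way. The breed labels were taken as given, and no gene analysed here checks them. Lanes and pools could not be entered as terms. Transcript lengths and sequences were not used here. Some genes are counted among the members but their own values are not reported here.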

Additional observations from a re-analysis of the deposited data

Results flagged for a closer look

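For the tested members with at least 320 counts in all, each group of 8 libraries was searched for a library whose gap to the nearest other passed Dixon's critical ratio to the group's range. Of 172 groups, 25 held such a library, and 8 of the 25 lay in PUL pigs 1 to 5, which gave 10 of the 32 libraries. The search covered members only, so no share over all genes can be set beside the 25. The ratio marks about 5% of independent groups drawn from a normal distribution. These were untransformed CPM, and the groups share libraries, so whether 25 exceeds chance was not tested.

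In PL LD, the library of pig 12 was far above the other 7 for 5 genes: CACNA2D1 at 79.7 CPM (others 5.88 to 28.5), ATP2B1 at 28.1 CPM (others 0.436 to 5.65), ATP2B2 at 7.59 CPM (others 0.453 to 3.26), CAMK2G at 57.4 CPM (others 8.29 to 28.9) and KCNA7 at 14.02 CPM (others 0.647 to 5.11). In PL S, pig 14 stood out for 5 genes: ATP2B1 at 14.3 CPM (others 0.628 to 5.81), ATP2B2 at 5.46 CPM (others 0.800 to 2.12), CAMK2G at 46.4 CPM (others 9.74 to 21.2), SCN4A at 39.3 CPM (others 5.77 to 21.2) and KCNJ4 at 11.5 CPM (others 0.427 to 2.36). These are the 2 libraries that correlated least with the rest.

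PUL pig 3 stood out for 4 genes of nicotinic receptor subunits, potassium channels and their auxiliary subunits. In LD its values were 9.81 CPM for CHRNA10 (others 1.68 to 5.02) and 5.01 CPM for CHRNE (others 0.596 to 2.41). In S they were 3.60 CPM for KCNN3 (others 1.33 to 2.36) and, below the rest, 0.391 CPM for KCNIP2 (others 2.22 to 3.76).

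PUL pig 5 had 312 CPM of ATP1B1 (others 93.1 to 152) and 458 CPM of ATP1B4 (others 37.1 to 165) in S. In PL S, pig 8 had 36.9 CPM of KCNJ9 (others 1.70 to 3.65) and 6.36 CPM of KCNIP3 (others 0.791 to 3.08). KCNJ9 also stood out in PUL LD, pig 13, at 8.33 CPM (others 1.88 to 2.74), and KCNIP3 in PUL LD, pig 17, at 3.15 CPM (others 0.562 to 1.68). In PUL LD, CHRNA9 was at 10.0 CPM in pig 2 (others 0.0495 to 1.04) and ATP2B3 at 11.1 CPM in pig 1 (others 3.09 to 5.62). KCNE3 was at 4.79 CPM in PL LD, pig 14 (others 1.24 to 2.52), and at 5.55 CPM in PL S, pig 7 (others 0.942 to 2.96). TRDN stood out in PUL S, pig 13, at 235 CPM (others 47.2 to 125).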

How the results depend on the processing

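The number of members called was 0 in each of the 6 comparisons by edgeR and stayed 0 under every alternative but DESeq2. Between muscles DESeq2 called 2 over both breeds and 2 within PUL. These were KCNN1 and CHRNE both times, with adjusted p of 0.0160 and 0.0458, and of 0.00464 and 0.0424. On simulated data DESeq2 made 41 false calls among 217 for the muscle comparison, where edgeR made 6 among 172. The simulated libraries carried no difference between pigs, unlike the data, so these rates may not hold for the real calls. With 1 pig left out at a time the number of members called ranged from 0 to 0. With the replicate number as a block between breeds it was 0 in LD and in S; the numbers pair no animals across breeds (median correlation 0.137, over 0.1 in 8 of 16). Without the pig as block, or with each breed fitted alone, it was 0 as well. For the members named for their smallest p in a comparison, no fitted value of that comparison changed sign. Other fitted values did, as given above. Without PUL pigs 1 to 5, CHRNE, KCNN1 and CHRNA9 between breeds in S and CLCN3 in LD rose above 0. Between muscles CHRNA3 fell below 0 without these pigs, and KCNMA1 without the LD library of PL pig 12 and the S library of PL pig 14. Without PUL pigs 1 to 5, KCNN1 was −0.30 in the interaction (against −1.17), 0.77 within PUL (1.64) and 0.62 over both breeds (1.05), and KCNIP2 in LD was 0.56 (1.06). Scaling by library size alone shifted the median of all genes by −0.18 between breeds in LD, −0.12 between muscles in PUL, 0.12 in PL and 0.24 in the interaction. The number of genes called over all genes was less stable: both muscles in 1 fit gave 6 in LD and 70 in S against 0, and without the LD library of PL pig 12 and the S library of PL pig 14, an alternative chosen after seeing the data, 54 were called between muscles against 11. On simulated data without a pig effect, edgeR recovered 15% of 2-fold and 59% of 4-fold interactions among genes drawn from all those tested. The members had a larger spread than all genes. Of the members, 63 averaged under 0.1 CPM, where no difference was detectable.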
